A study of Mus musculus with 9 samples.

Results

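Rad21 binding was compared between CD4-CD8- double-negative (DN) thymocytes and pre-B cells, that is, between early progenitors of the T and B lineages. The members were the Rad21 ChIP-seq peaks of both libraries on chromosomes 1 to 19, without the 6 antigen receptor loci and 100 kb on each side of them. This left 39023 of the 190262 peaks in the 5 ChIP libraries: 9466 of 9701 DN peaks and 29557 of 30488 pre-B peaks. A site was called shared when a DN peak and a pre-B peak overlapped by 1 bp or more.

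DN thymocytes came from Rag1-/- C57BL/6 mice of 4 to 8 weeks, and pre-B cells from the bone marrow of RAG-/- C57BL/6 mice of 6 to 14 weeks that carried a rearranged µ heavy chain transgene. Other readouts at the same sites came from 3 further libraries: CTCF in the same pre-B cells, CTCF in RAG1-deficient pro-B cells cultured for 7 days with IL7, and Rad21 in CD4+CD8+ double-positive (DP) thymocytes of Rag1-/- mice with a TCRb transgene. These were C57BL/6 mice too, of 6 to 14 weeks for the pro-B cells and 4 to 8 weeks for the DP cells. All of these mice lack RAG recombinase, so neither cell type rearranges its receptor loci and both are held at a defined stage. The DN and DP cells were whole thymocytes of such mice, and the pre-B cells owe their stage to the transgene. Each antibody and cell type had 1 library, so no test between cell types was possible, the spread between animals is unknown, and all intervals below cover counting error only. Peak lists do not show which genes are expressed, so the cell type labels were not checked against markers, and CTCF in thymocytes was not analysed here.

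Rad21 is the kleisin subunit of cohesin, the ring-shaped complex that extrudes chromatin loops and holds sister chromatids together. CTCF, a zinc finger protein that binds an oriented DNA motif, stops extruding cohesin, so that most cohesin peaks in mammalian cells lie on CTCF sites and mark the anchors of loops. Cohesin is also found without CTCF at active promoters and enhancers, and these sites differ more between cell types.

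The score of a peak is derived by the peak caller from its p-value against input, and it grows with sequencing depth. In the main comparisons it was therefore used only as a percentile, the share of a peak's own list that scored lower. Kept DN peaks scored from 86.45 to 2606.96 with a median width of 434 bp, and kept pre-B peaks from 59.74 to 3197.51 with a median width of 623 bp. The number of reads behind either list is unknown. Because the pre-B list is longer, the comparisons of sites, ranks, other libraries and genes were repeated with that list limited to its 9466 highest peaks. The limited list ended at a score of 328.44 shared by 30 peaks.

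Nearly all DN sites were pre-B sites, whereas most pre-B sites were not found in DN thymocytes. Of 9466 DN peaks, 8903 (94.1%, 95% interval 93.6 to 94.5%) overlapped a pre-B peak and 563 (5.95%) did not. Of 29557 pre-B peaks, 8871 (30.01%, 29.5 to 30.5%) overlapped a DN peak and 20686 (70.0%) did not. Nearly all shared peaks had a single partner, all but 17 in DN and 48 in pre-B. With only 9466 DN peaks, most of the longer pre-B list therefore had to stay without a partner. With lists of equal length both shares had to be nearly the same for that reason, and only their level is a result. There, 6364 DN peaks (67.2%, 66.3 to 68.2%) and 6319 pre-B peaks (66.8%, 65.8 to 67.7%) were shared. This left 3102 (32.8%) found in DN only and 3147 (33.2%) found in pre-B only.

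Sharing followed rank. In the full lists 99.3% (98.5 to 99.7%) of the top decile of DN peaks were shared, and 86.5% (84.1 to 88.6%) of the lowest decile. The top decile of pre-B peaks was shared at 89.1% (87.9 to 90.2%) and the lowest at 3.45% (2.82 to 4.17%). Over equal-length lists both cell types fell along nearly the same line, from 94.4% to 40.5% for DN and from 94.8% to 39.0% for pre-B. DN-only peaks of the full lists were mostly not near misses: 21 of 563 (3.73%) lay within 1 kb of a pre-B peak, and the median distance to the nearest was 34882 bp.

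**Figure D1:**
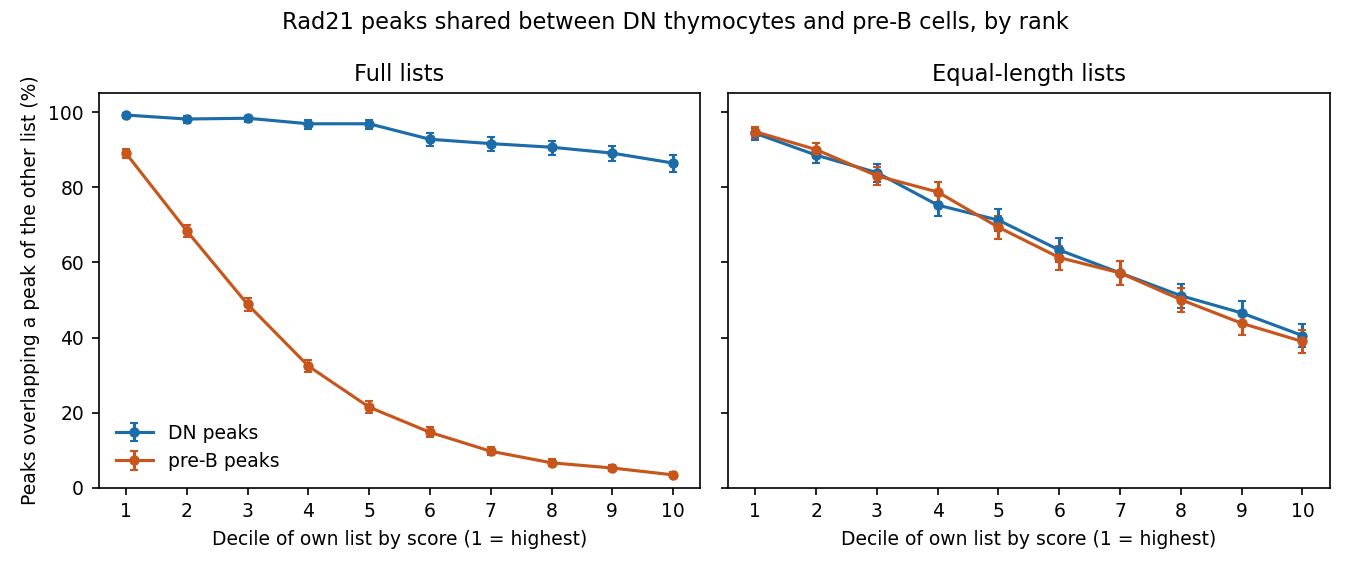
Share of Rad21 peaks (%, vertical axis) that overlap a peak of the other cell type, by decile of a peak's own list (horizontal axis, 1 = highest scores), with exact 95% intervals. In the full lists DN peaks stay between 86.5% and 99.3% while pre-B peaks fall from 89.1% to 3.45%, and in the equal-length lists the lines for both cell types run together.

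At shared sites the ranks agreed only in part. Spearman's rho between the percentiles in both lists was 0.49 over 8903 sites in the full lists and 0.43 over 6364 sites in the equal-length lists, a description over sites that come from the same pair of libraries. In the full lists the median difference, DN minus pre-B, was -22.2 points, a shift that comes with the longer pre-B list. With lists of equal length it was -0.43 points. There, 1162 sites (18.3%) stood more than 25 points higher in DN and 1250 (19.6%) more than 25 points higher in pre-B. At the top of the lists most peaks had a counterpart, though often not at a like rank: all 100 of the highest DN peaks and 97 of the 100 highest pre-B peaks had a peak in the other list, but only 18 of the 100 highest overlapped one of the other list's 100 highest, and 1 of the 10 highest one of its 10 highest. The highest DN partners of the 100 highest pre-B peaks stood as low as percentile 12.5, and 422 of the 1000 highest DN peaks overlapped one of the 1000 highest pre-B peaks.

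**Figure D2:**
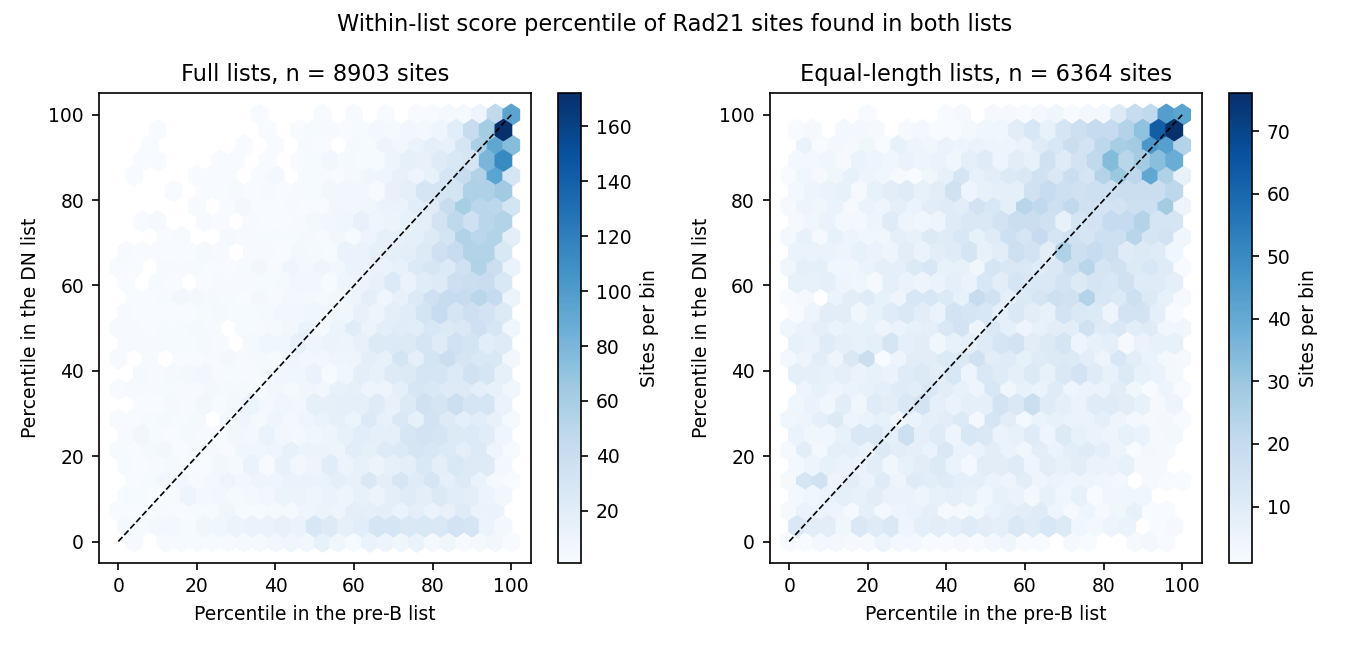
Percentile of each shared Rad21 site in the pre-B list (horizontal axis) and in the DN list (vertical axis), for full lists (8903 sites) and equal-length lists (6364 sites); colour gives sites per bin and the dashed line marks equal percentiles. Sites crowd at the top right corner, lie mostly below the line in the full lists and scatter on both sides of it in the equal-length lists.

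The sites with the largest change in rank are shown first with their sequence. Each window is 52 bases of mm9 with the closest match in the peak to the study's de novo CTCF consensus (HOMER) in capitals, printed on the strand of the match. Sites near Gm10295 (chr7:78557225-78557276, plus strand), Adra1b (chr11:43650042-43650093, minus) and Slc45a1 (chr4:150082755-150082806, minus) had a high DN peak and no pre-B Rad21 peak, and each match differs from the consensus at 1 base.
Gm10295: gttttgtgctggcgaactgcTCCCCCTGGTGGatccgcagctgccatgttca
Adra1b: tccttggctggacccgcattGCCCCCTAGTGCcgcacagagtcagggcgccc
Slc45a1: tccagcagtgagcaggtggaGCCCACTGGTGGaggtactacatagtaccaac
Sites near Scd4 (chr19:44438171-44438222, minus) and Nrxn2 (chr19:6552630-6552681, minus) had a high pre-B peak and no DN peak, with 2 mismatches each.
Scd4: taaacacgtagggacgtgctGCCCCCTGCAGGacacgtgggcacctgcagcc
Nrxn2: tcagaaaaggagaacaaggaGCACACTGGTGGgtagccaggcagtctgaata
A shared site near Gm498 (chr7:151093493-151093544, plus, 1 mismatch) ranked far higher in DN, and one at Nenf (chr1:193136457-193136508, minus, 1 mismatch) far higher in pre-B.
Gm498: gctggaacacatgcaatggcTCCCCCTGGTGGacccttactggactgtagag
Nenf: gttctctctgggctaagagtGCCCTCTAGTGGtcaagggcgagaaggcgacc
These windows were picked for their few mismatches. The closest match had 1 to 4 mismatches over the 10 highest DN-only sites, 2 to 4 over the 10 highest pre-B-only sites, 1 to 6 over the 10 shared sites that ranked highest in DN relative to pre-B and 1 to 4 over the 10 in the other direction.

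The highest DN peak with no pre-B peak lay in an intron of Ccdc60 (chr5:116681852-116682346), at percentile 98.7 and rank 121 of the DN list. It had no pre-B CTCF peak, a CTCF peak at percentile 81.3 of the IL7 pro-B list and a Rad21 peak at percentile 89.8 of the DP list, and the nearest pre-B Rad21 peak was 107948 bp away. The next were intergenic, 48382 bp from Scel (percentile 97.9, with a pre-B peak 4417 bp away) and 10644 bp from 4922501L14Rik (96.9). A peak 42454 bp from Bmp7, a secreted growth factor of the BMP family, stood at percentile 92.0 in DN and 99.2 in DP, with a pre-B peak 1794 bp away. One of the 10 lay at a promoter, that of Adra1b, which encodes an alpha-1 adrenergic receptor, at percentile 89.5 in DN and with no DP peak. The other 5, nearest to Samd9l, Gm10295, Gm10650, Pxmp3 and Slc45a1, were intergenic and stood between percentiles 88.1 and 94.1. Of these 10 sites 9 had a DP Rad21 peak and 9 an IL7 pro-B CTCF peak, but only those near 4922501L14Rik and Gm10295 had a pre-B CTCF peak.

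Pre-B peaks with no DN counterpart included some of the highest of their list. A 3243-bp peak at the promoter of Fam43a (chr16:30599343-30602585) had rank 12, and the nearest DN peak lay 1731 bp away. The next stood 16366 bp from Scd4, a stearoyl-CoA desaturase gene (chr19:44437599-44438772, rank 40), and 312084 bp from Clint1, the nearest gene in a long gene-poor stretch (chr11:45352480-45353423, rank 95). A 2605-bp peak at the promoter of Chst15 (rank 259), which encodes a sulfotransferase of chondroitin sulfate, had a pre-B CTCF peak at percentile 96.0. Peaks near Nrxn2, 4930471M23Rik, Bckdha, Fcho1, 1700057K13Rik and Slpi, a leukocyte protease inhibitor gene, completed the 10 at ranks 103 to 328. All 10 had CTCF peaks in both B-lineage lists, and 6 of them had a DP Rad21 peak.

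Among shared sites, the largest difference in favour of DN was in an intron of Hs3st3b1, which encodes a heparan sulfate sulfotransferase: percentile 96.9 in DN (rank 295) and 8.44 in pre-B (rank 27063). Next came a site 9389 bp from Deptor, an inhibitor of mTOR (93.6 in DN and 8.80 in pre-B), and a site 28370 bp from Rph3al, a Rab effector gene (88.9 and 6.04). Sites near Etnk1, Kcnma1, 6230409E13Rik, Zfhx3, Slco3a1, Zfp618 and Gm498 followed with differences of 64.3 to 80.0 points. None of these 10 pre-B peaks was among the 9466 highest. Their CTCF peaks in pre-B cells were present at all 10, at percentiles from 2.16 to 49.9.

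In the other direction the largest difference, DN minus pre-B, was -98.3 points, at an intergenic site 17938 bp from Gm5428: percentile 0.93 in DN (rank 9377) and 99.3 in pre-B (rank 214). Sites in Plaur, Nenf and Rsph1, and intergenic sites 2281 bp from Gp1bb and 55352 bp from Slc44a1, had differences of -93.4 to -96.5 points. The other 4 of the 10 DN peaks lay under a wide pre-B peak that also covered a higher DN peak, so their difference was not that of the whole pre-B peak. At the promoter of Cited2, a transcriptional coregulator needed in haematopoietic stem cells, the pre-B peak had rank 26 (percentile 99.9) and a width of 3437 bp, and the highest of its 3 DN peaks stood at 47.1. The highest DN peak under the pre-B peak stood at percentile 53.6 in Prkag2, 75.2 at the promoter of 5930403N24Rik and 99.5 near Arl4c, where the pre-B peak stood at 99.7. All 10 pre-B peaks were within the 9466 highest, and all 10 DN peaks had a DP Rad21 peak, at percentiles from 35.6 to 99.9. The site at the 5930403N24Rik promoter had no pre-B CTCF peak, and the other 9 had one at percentile 69.7 or higher.

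Limiting the pre-B list changed which sites differed most in favour of DN, since none of the 10 sites above kept its pre-B peak. They then lay near Rai1, Grm4, Otud1, Trim29 and Cdk6, in Gng7, March10, Ptrf and Dync1i1, and near Galr1, with differences of 87.1 to 97.1 points. Cdk6, a kinase of the G1 phase, lay 149943 bp from its site, which stood at percentile 93.0 in DN, 5.95 in the limited and 69.9 in the full pre-B list. The pre-B peaks of all 10 lay just inside the limit, at percentiles from 68.0 to 70.1 of the full list, where the differences were 20.7 to 29.3 points. In favour of pre-B, 9 of the 10 sites named above were again among the 10, and Lynx1 took the place of Slc44a1 at a difference of -87.2 points. These second lists were drawn up after the values had been seen.

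The highest DN peak of all was unlike the others. It spanned 5994 bp (chr17:39979861-39985854), the only DN peak wider than 2 kb, overlapped the non-coding gene AY036118 and scored 2606.96, against 1074.6 for the next. It stood at percentile 90.1 in pre-B (rank 2929) and at 99.9 in DP. Reads mapping to up to 3 places were kept in these lists, and whether this peak comes from repeated sequence was not tested. The 8 pre-B peaks at ranks 3 to 10 all scored 3100, so their order is arbitrary, and among them was the promoter of Bcl2l1, the gene of the survival factor Bcl-xL, at percentile 89.3 in DN. Another, in an intron of the growth factor receptor gene Fgfr2, stood at percentile 44.5 in DN, while a further Fgfr2 intron peak of the same score stood at 98.8.

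Other libraries separated the classes of site. CTCF peaks of pre-B cells overlapped 99.3% (99.2 to 99.5%) of shared sites, 83.1% (82.6 to 83.6%) of pre-B-only sites and 43.9% (39.7 to 48.1%) of DN-only sites. For CTCF of IL7 pro-B cells the shares were 99.8%, 86.3% and 75.1%. The pre-B CTCF and Rad21 libraries were called against 1 input, and pre-B-only sites were themselves called in pre-B cells, so these shares are not balanced between the classes. Rad21 peaks of DP thymocytes, the later stage of the T lineage, overlapped 95.7% (95.3 to 96.2%) of shared sites, 75.7% (71.9 to 79.2%) of DN-only sites and 55.3% (54.6 to 55.9%) of pre-B-only sites.

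With equal-length lists the classes came closer together. Rad21 of DP cells then overlapped 98.4% of shared, 86.6% (85.3 to 87.8%) of DN-only and 82.9% (81.5 to 84.2%) of pre-B-only sites. Pre-B CTCF overlapped 99.95%, 88.0% and 99.3% of them. Where a DP peak was present, its median percentile was 69.6 at DN-only and 65.4 at pre-B-only sites, against 88.4 at shared sites. The median percentile of pre-B CTCF peaks was 59.7 at DN-only, 80.2 at pre-B-only and 86.4 at shared sites.

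**Figure D3:**
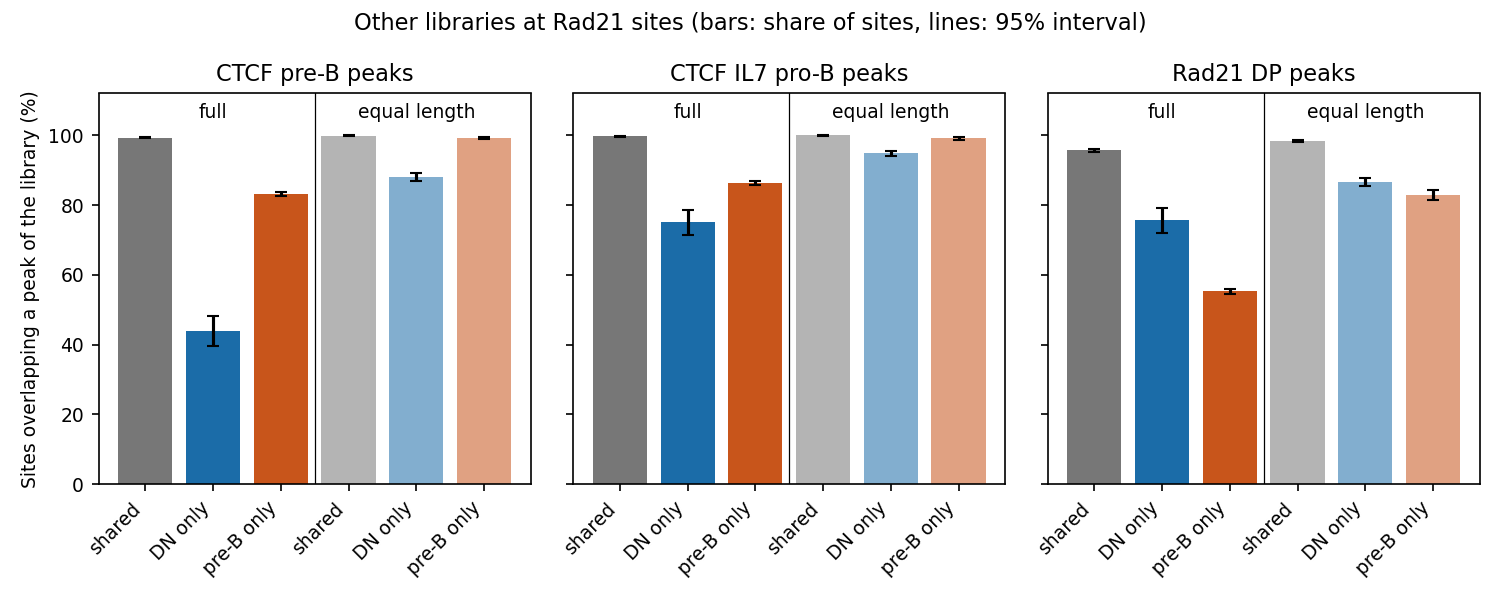
Share of Rad21 sites (%, vertical axis) that overlap a peak of pre-B CTCF, IL7 pro-B CTCF or DP Rad21, in 3 panels, for shared, DN-only and pre-B-only sites of the full lists (left of each line) and the equal-length lists (right), with exact 95% intervals. The lowest bar is pre-B CTCF at DN-only sites of the full lists, 43.9%, and DP Rad21 is lowest at pre-B-only sites, 55.3%.

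Rank shifts at shared sites went along with the other libraries to a smaller degree. In the equal-length lists the median pre-B CTCF percentile was 77.1 (quartiles 67.8 and 86.6) at the 1162 sites higher in DN, 87.4 (77.6 and 94.3) at the 3952 sites within 25 points and 90.3 (82.0 and 95.9) at the 1250 sites higher in pre-B. The median DP Rad21 percentile was 87.3, 89.6 and 85.9 in the same order. Promoters held 9.81% (8.16 to 11.7%), 7.01% (6.23 to 7.85%) and 7.68% (6.26 to 9.30%) of the sites. The quartile ranges of both libraries overlapped between the groups.

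Most sites without CTCF were DN-only or pre-B-only and few were shared, a split made after the values had been seen. No CTCF peak of either B-lineage list overlapped 11 of 8903 shared sites (0.124%), 138 of 563 DN-only sites (24.5%, 21.0 to 28.3%) and 2266 of 20686 pre-B-only sites (10.95%, 10.5 to 11.4%). With equal length all of these shares fell, to 0 of 6364 shared, 149 of 3102 DN-only (4.80%, 4.08 to 5.62%) and 11 of 3147 pre-B-only sites (0.35%, 0.17 to 0.62%). The CTCF-free pre-B-only sites of the full lists thus lay almost wholly in the lower part of the pre-B list, at a median percentile of 15.7, and those of DN at 20.1 of theirs. Since CTCF was not measured in DN cells here, a DN-only site without a B-lineage CTCF peak may still bind CTCF in thymocytes. Rad21 of DP cells was present at 115 of those 138 DN sites (83.3%, 76.0 to 89.1%) and at 896 of those 2266 pre-B sites (39.5%, 37.5 to 41.6%).

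In the full lists these CTCF-free sites had different positions in the 2 cell types, with the pre-B sites drawn from the part of the list that equal length removes. Protein-coding promoters, counted as 1000 bp on each side of a transcription start, held 31.7% (29.8 to 33.6%) of the CTCF-free pre-B-only sites and 5.80% (2.54 to 11.1%) of the CTCF-free DN-only sites, of which 61.6% (52.9 to 69.7%) were intergenic. Over whole classes the promoter share was 8.27% (7.70 to 8.86%) for shared, 13.0% (10.3 to 16.0%) for DN-only and 16.6% (16.1 to 17.1%) for pre-B-only sites. In the equal-length lists it was 7.65%, 10.4% and 11.3%. The median width was 583 bp for pre-B-only and 403 bp for DN-only peaks in the full lists, and 711 and 401 bp in the equal-length lists. The part of width in the promoter shares was not tested.

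Motif content was read in the central 300 bases of each peak on both strands and in windows of the same length 2000 bp away on both sides. The CTCF consensus with at most 2 mismatches stood in 57.3% (56.2 to 58.3%) of shared, 32.1% (28.3 to 36.2%) of DN-only and 38.1% (37.4 to 38.8%) of pre-B-only sites, against 4.63%, 2.66% and 4.19% of their neighbouring windows. In CTCF-free sites it stood in 7.25% (3.53 to 12.9%) for DN and 6.84% (5.84 to 7.96%) for pre-B.

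In the full lists, the only ones searched for motifs, CTCF-free pre-B-only sites, low in their list as they were, held several lymphoid motifs more often than their neighbours did. The motif TCCCNNGGG of EBF factors, which direct the B lineage, stood in 11.2% (9.94 to 12.6%) against 4.37% of neighbouring windows. The ETS motif GAGGAAGT, bound by PU.1 among others, stood in 8.56% (7.44 to 9.79%) against 1.99%, and the E-box CAGCTG, bound by E proteins, in 30.6% (28.7 to 32.6%) against 14.7%. The RUNX motif TGTGGTT stood in 10.2% (8.98 to 11.5%) against 7.70%. The TCF/LEF and GATA motifs were less frequent there than in the neighbours, and GATA motifs also in shared sites (2.94% against 3.796%) and in all pre-B-only sites (2.98% against 3.93%). In the CTCF-free sites CTTTGAA, bound by TCF and LEF factors, stood in 4.68% (3.85 to 5.63%) against 6.58%, and AGATAAG, bound by GATA factors, in 2.56% (1.95 to 3.30%) against 4.15%. None of these strings contains another. Motif shares also move with base composition, and promoters made up 31.7% of these sites, so the part of composition was not tested.

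In CTCF-free DN-only sites the RUNX motif stood in 13.8% (8.50 to 20.7%) against 8.33% of neighbouring windows and the E-box in 24.6% (17.7 to 32.7%) against 14.1%. EBF stood in 2.90% (0.80 to 7.26%) against 4.71% and ETS in 1.45% (0.18 to 5.14%) against 3.26%. TCF and LEF motifs stood in 7.25% against 5.80%, and GATA motifs in 2.17% against 3.26%. Over these 138 sites the intervals of the E-box and, barely, of RUNX began above the neighbours' value, and those of the other 4 motifs included it. Of all DN-only sites, 21.1% (17.8 to 24.7%) held the E-box against 12.8% of neighbouring windows, beside 18.5% against 14.4% for shared and 18.6% against 14.4% for pre-B-only sites. The EBF motif stood in 5.51% (3.77 to 7.72%) of all DN-only sites against 3.29% of neighbouring windows, and in 5.61% (5.30 to 5.93%) of all pre-B-only sites against 4.24%. For RUNX the values were 8.35% (6.20 to 10.9%) of all DN-only sites against 8.08%. In shared sites they were 6.73% against 8.12%, and in all pre-B-only sites 9.29% against 7.80%.

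Genes were compared by the peaks in the gene body and 10 kb on each side. Over 21356 protein-coding genes, 102 (0.478%) had a peak in DN only and 6582 (30.8%) in pre-B only in the full lists, and 1419 (6.64%) and 1654 (7.74%) in the equal-length lists. Of 35 T-lineage genes, 25 had peaks in both, 0 in DN only and 4 in pre-B only: Il2ra, the alpha chain of the IL-2 receptor and a marker of DN stages, Lck, the kinase of the pre-TCR, Ptcra, the pre-TCR alpha chain, and Ubash3a. Of 34 B-lineage genes, 22 had peaks in both, 0 in DN only and 10 in pre-B only. Of 25 progenitor genes used by both lineages, 17 had both, 0 DN only and 8 pre-B only, and of 29 genes of other marrow or thymic cells, 8 had both, 0 DN only and 13 pre-B only. As shares of their lists, the pre-B-only genes made up 11.4% for the T lineage, 29.4% for the B lineage, 32% for progenitors and 44.8% for other cells, beside 30.8% of all genes. In the same order, genes with no peak in either cell type made up 17.1%, 5.88%, 0% and 27.6%, beside 38.1% of all genes.

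Lists of equal length turned some T-lineage genes to DN. Among the 35 T-lineage genes 6 then had a peak in DN only (17.1%, beside 6.64% of all genes) and 2 in pre-B only (5.71%, beside 7.74%). Among the 6 were Bcl11b and Gata3, transcription factors of T-lineage commitment, Cd3e of the T-cell receptor complex, Cd6 and Themis, a regulator of thymocyte selection. Among the 34 B-lineage genes 0 had a peak in DN only and 4 in pre-B only (11.8%), beside 4 of 29 genes of other cells (13.8%), which also had 2 in DN only, and 1 of 25 progenitor genes in either direction. The B-lineage genes were Pax5, the commitment factor of the B lineage, Ciita, the activator of MHC class II genes, Irf4 and Rasgrp3. These shares count all genes of a list, also those with no peak. No peak in DN or pre-B was found at 61.2% of all, 22.9% of T-lineage, 23.5% of B-lineage, 28% of progenitor and 58.6% of other-cell genes. Peaks in both were found at 24.4%, 54.3%, 64.7%, 64% and 20.7% in the same order. The T-lineage and B-lineage lists were drawn up with earlier results of these data known.

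At 7 of the 25 T-lineage genes with peaks in both full lists the best DN peak stood at the higher percentile, and at 18 the best pre-B peak. At B-lineage genes this was so at 3 and 19 of 22, and over all protein-coding genes at 985 and 5551 of 6536. The median difference, DN minus pre-B, was -8.04 points for T-lineage genes, -25.4 for B-lineage genes and -22.0 over the 6536 protein-coding genes with peaks in both. With equal length the medians were 3.06, -5.34 and -0.88. The best DN peak then stood higher at 13 of 19 T-lineage, 7 of 22 B-lineage and 2510 of 5219 of all genes with peaks in both.

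**Figure D4:**
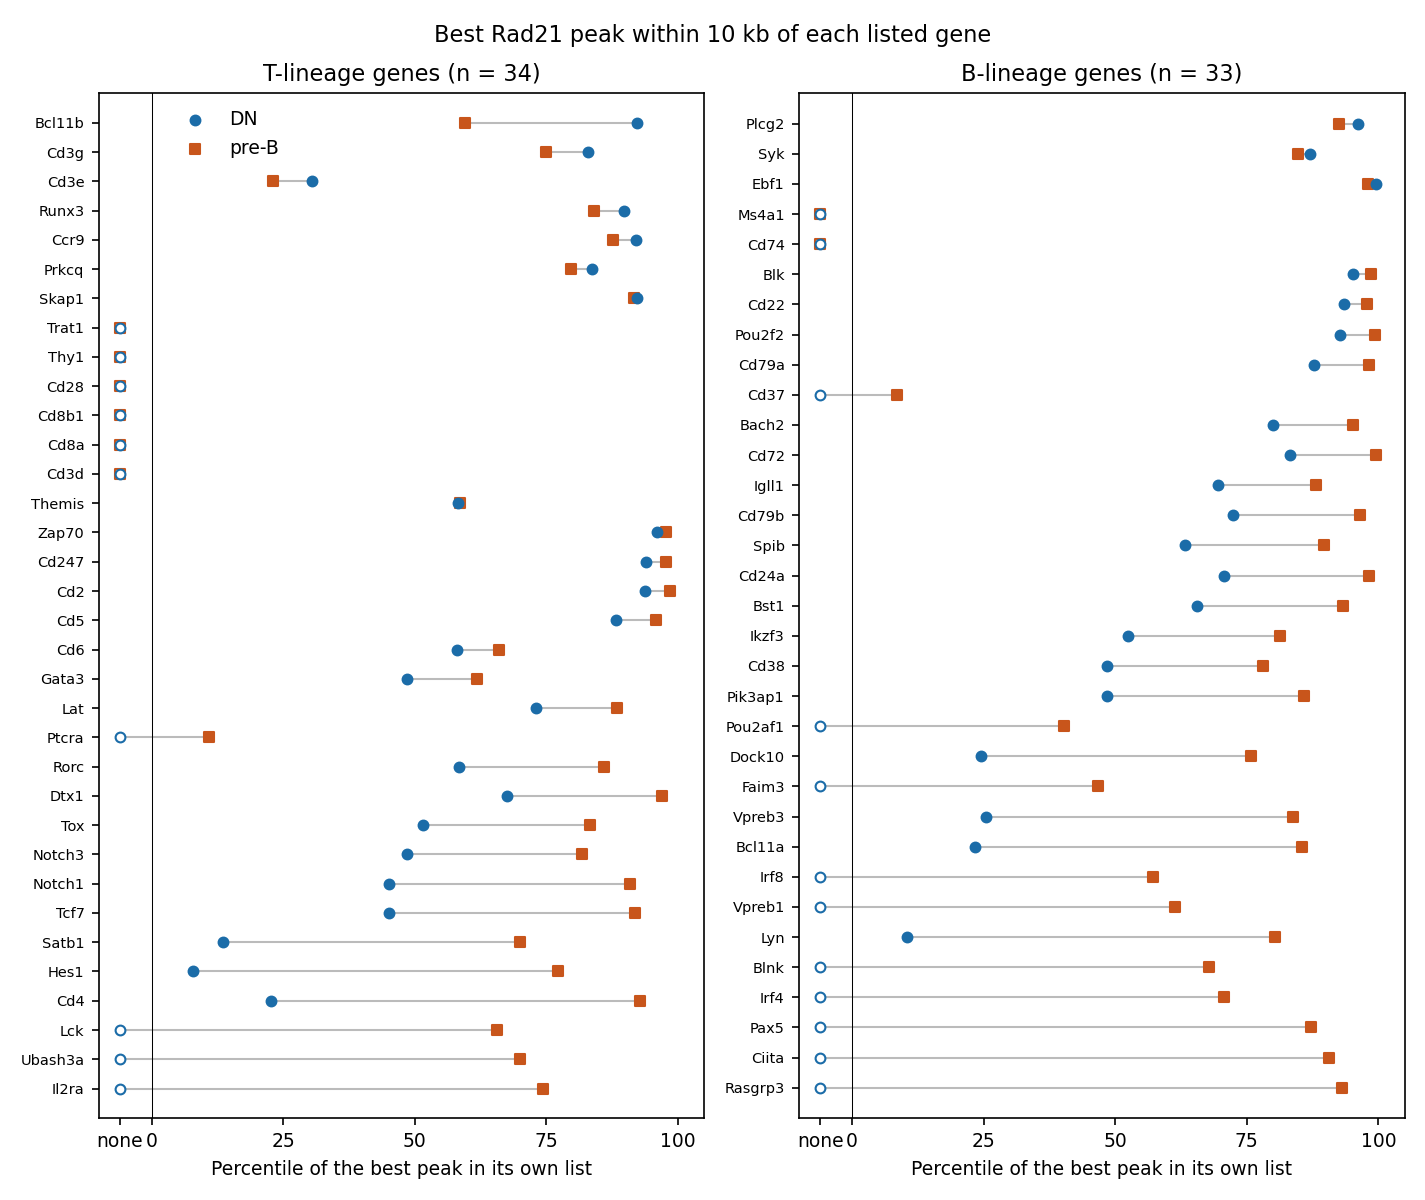
Percentile of the best Rad21 peak within 10 kb (horizontal axis) in the DN list (circles) and in the full pre-B list (squares) for 34 of the T-lineage and 33 of the B-lineage genes, ordered by the difference; open symbols at the left stand for no peak. Bcl11b has the largest difference in favour of DN among T-lineage genes, and Rasgrp3, Ciita, Pax5 and Irf4 lie at the bottom of the B-lineage genes with no DN peak.

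Pax5 showed the clearest contrast among the B-lineage genes. Within 10 kb of the gene there were 11 pre-B Rad21 peaks, the best at percentile 87.1, and 0 in DN and 0 in DP thymocytes. In 300 kb on each side of its start there were 23 pre-B peaks, of which 22 had no DN partner, as had 70.0% of all pre-B peaks, against 1 DN peak, at percentile 75.2 and 262 kb upstream. Rasgrp3, a Ras activator downstream of the B-cell receptor, had 3 pre-B peaks (best 93.1), 0 in DN and 0 in DP. Ciita had 3 (best 90.6) and Irf4 had 4 (best 70.7), again with 0 in DN but with 2 and 7 in DP. Blnk, Irf8, Vpreb1, Pou2af1, Cd37 and Faim3 had 1 or 2 pre-B peaks, the best of them at 67.7, and 0 in DN.

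Ebf1, the other early B-lineage factor, differed from Pax5. A DN peak at its 3' end, 391 kb from the start, stood at percentile 99.5 (rank 49 of the DN list), beside a pre-B peak at 93.8 and a DP peak at 97.9. From 300 kb before to 600 kb after its start there were 7 DN peaks, of which 6 were shared (94.1% over all DN peaks), and 28 pre-B peaks, of which 22 had no DN partner (70.0% over all pre-B peaks). The DP list had 21 peaks there. Ebf1 thus carried Rad21 in all 3 cell types. With equal length, within 10 kb of the gene 2 of its 10 pre-B peaks remained beside 3 in DN.

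The regions shown were chosen after the values had been seen. Bcl11b was the T-lineage gene with the largest difference in favour of DN. Within 10 kb it had 3 DN peaks, at percentiles 92.3, 73.0 and 66.7, of which the last 2 had no pre-B partner, and 1 pre-B peak at 59.5. A site 118 kb upstream was shared, at percentile 98.9 in DN and 61.5 in pre-B. The gene desert downstream, which holds a known T-cell enhancer of Bcl11b, had DN peaks at 884, 885 and 917 kb from the start, at percentiles 23.3, 85.7 and 87.2, and no pre-B peak. All 3 overlapped DP peaks at percentile 99.7 or higher. The peaks at 884 and 885 kb lay side by side under the same DP peak. The DP list had 99 peaks from 200 kb before to 1100 kb after the start. Pre-B CTCF had 6 peaks over the same stretch and none in the desert.

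Gata3 had a shared peak 10 kb after its start (percentile 48.5 in DN and 61.7 in pre-B) and DN peaks without a pre-B partner at 62 kb (83.1) and 296 kb (63.6) downstream, both with a DP peak. On the other side, pre-B peaks at percentiles 7.42 and 92.2 had no DN partner, and both had a DP peak, at percentiles 57.3 and 30.2. The sequences of 2 of the Bcl11b desert peaks and of the 296-kb site of Gata3 are given for the central 300 bases of each peak, on the plus strand of mm9. They were picked for their matches, and the peaks at 885 kb from Bcl11b and 62 kb from Gata3 held none of the 6 lymphoid motifs, with 4 and 3 mismatches to the CTCF consensus. Capitals mark the closest CTCF consensus match at 917 kb (chr12:108324526-108324825, 2 mismatches), the RUNX motif at 884 kb (chr12:108357385-108357684) and the E-box at Gata3 (chr2:9515490-9515789).
Bcl11b at 917 kb: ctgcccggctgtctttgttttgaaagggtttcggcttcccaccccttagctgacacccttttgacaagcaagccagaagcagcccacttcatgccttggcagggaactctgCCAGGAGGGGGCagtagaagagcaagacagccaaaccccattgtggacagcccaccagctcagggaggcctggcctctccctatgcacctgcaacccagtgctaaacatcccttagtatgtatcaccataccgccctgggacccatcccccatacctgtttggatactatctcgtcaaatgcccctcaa
Bcl11b at 884 kb: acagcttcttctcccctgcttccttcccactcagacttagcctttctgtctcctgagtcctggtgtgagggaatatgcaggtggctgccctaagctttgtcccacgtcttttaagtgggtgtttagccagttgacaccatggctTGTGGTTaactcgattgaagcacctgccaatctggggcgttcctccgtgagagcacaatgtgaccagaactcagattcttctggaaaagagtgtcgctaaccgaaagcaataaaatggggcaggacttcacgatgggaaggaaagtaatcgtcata
Gata3 at 296 kb: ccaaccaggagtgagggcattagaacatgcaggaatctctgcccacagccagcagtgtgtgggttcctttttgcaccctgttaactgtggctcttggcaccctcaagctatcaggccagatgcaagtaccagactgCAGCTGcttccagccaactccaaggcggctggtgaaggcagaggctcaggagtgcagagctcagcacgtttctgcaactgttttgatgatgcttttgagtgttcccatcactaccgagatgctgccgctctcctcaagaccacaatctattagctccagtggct
The 917-kb site had an IL7 pro-B CTCF peak at percentile 13.8 and no pre-B CTCF peak, and the 884-kb site had neither.

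**Figure D5:**
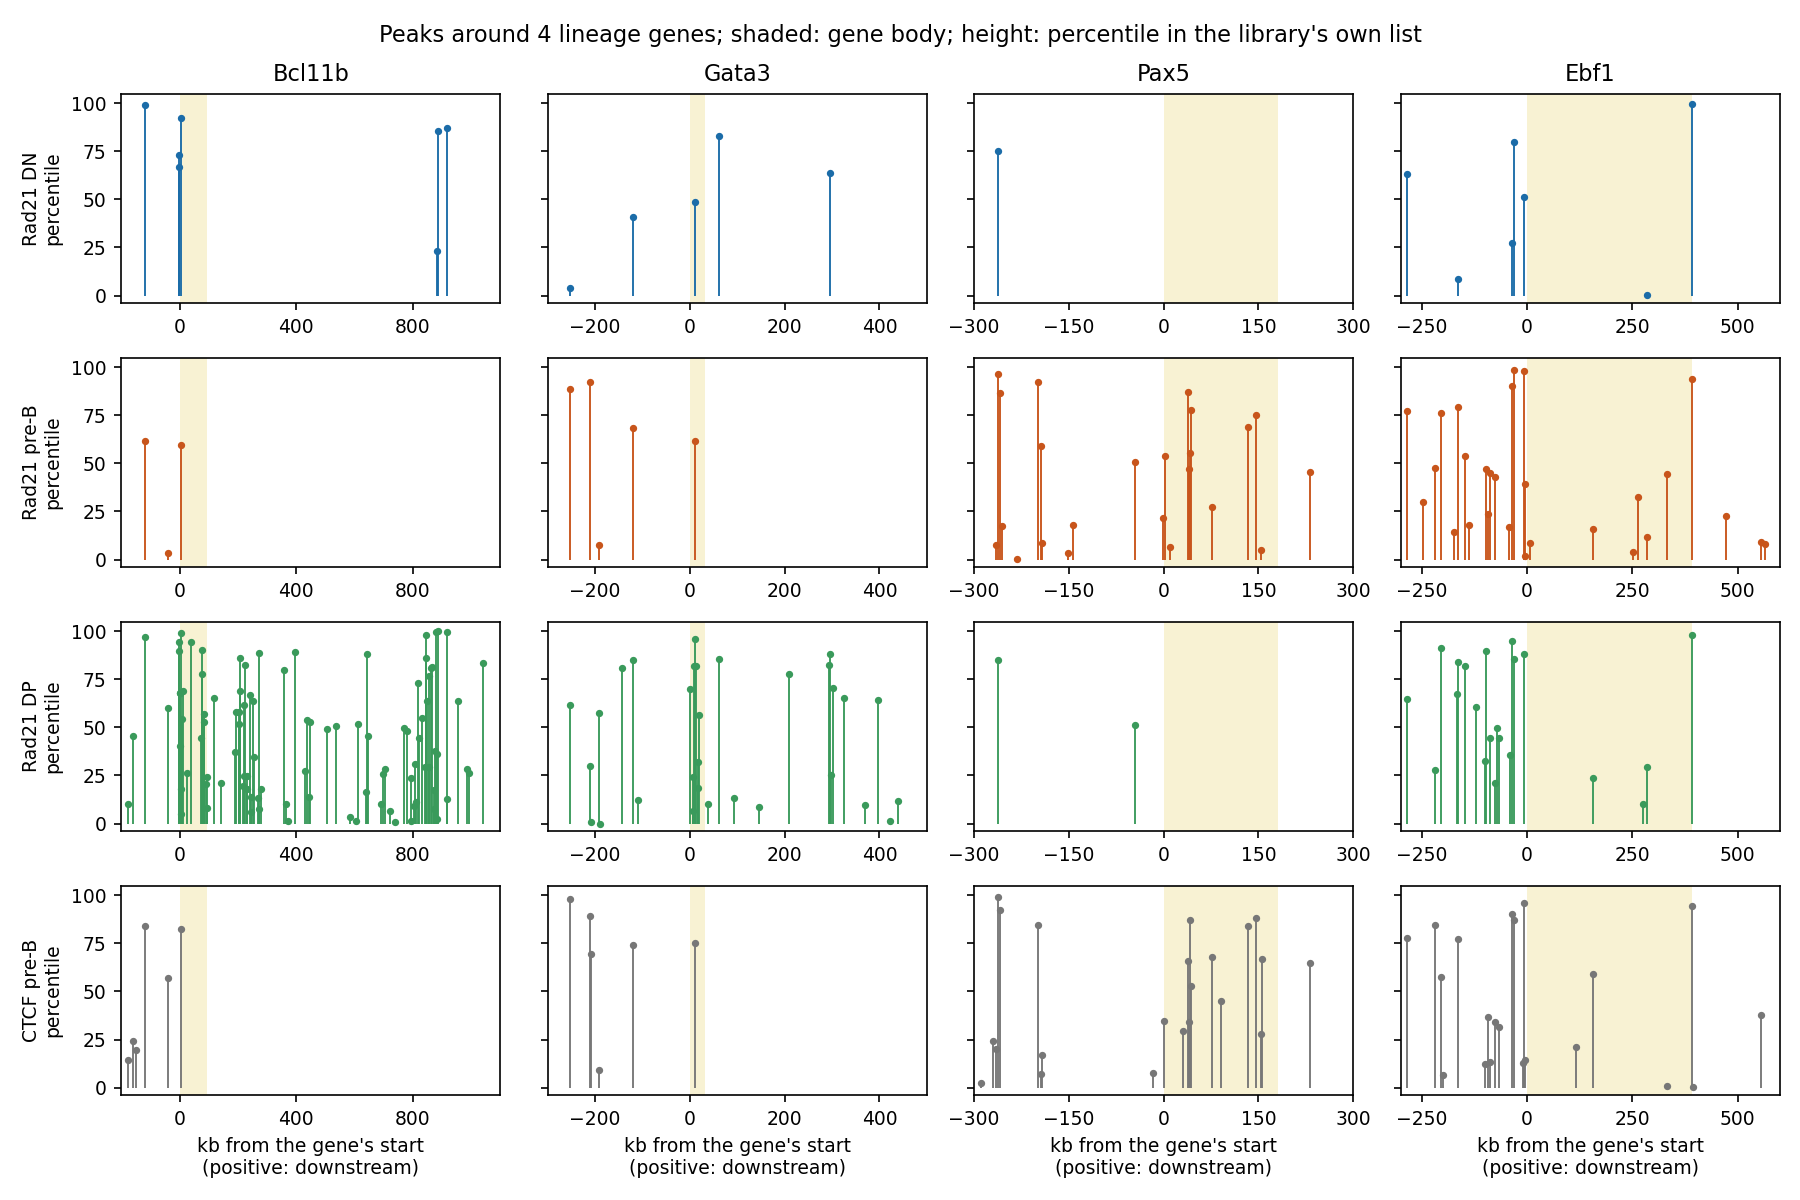
Peaks around Bcl11b, Gata3, Pax5 and Ebf1 in 4 libraries, by distance from the gene's start (horizontal axis, kb) and by percentile in the library's own list (vertical axis), with the gene body shaded. Rad21 peaks fill the Pax5 gene in pre-B cells and are absent from it in DN and DP thymocytes, while the desert after Bcl11b has peaks in DN and DP thymocytes and none in pre-B cells.

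Of the 35 T-lineage genes 6 (17.1%) had no Rad21 peak in either list, beside 38.1% of all protein-coding genes. Cd3d, Cd8a, Cd8b1, Cd28, Thy1 and Trat1 had 0 DN and 0 pre-B peaks within 10 kb, and the DP list had 6, 9, 11, 7, 5 and 1. Cd4 had 1 DN peak at percentile 22.7 and 2 pre-B peaks, the best at 92.8, a difference of -70.1 points. Hes1, a target of Notch, followed in the T-lineage list at -69.2 points. Of the B-lineage list Lyn, a Src family kinase (-70.0 points), and Bcl11a (-62.2) had the largest differences, and Plcg2, Syk and Ebf1 were the only 3 with a higher DN percentile in the full lists.

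In the full lists progenitor genes leaned to pre-B about as all genes did. The best pre-B peak stood higher at 16 of 17 with peaks in both, beside 5551 of all 6536 such genes, and the median difference was -29.5 points beside -22.0. With equal length it was -1.94 beside -0.88, and the best DN peak stood higher at 6 of 16, beside 2510 of 5219 of all such genes. Id2, an inhibitor of E proteins, had rank 276 in DN and rank 37 in pre-B, and Cxcr4, the chemokine receptor that holds progenitors in the marrow, percentile 61.5 in DN and rank 35 in pre-B. The largest differences were at Lmo2 (2.62 in DN and 84.0 in pre-B), Erg (12.9 and 91.6) and Lef1 (3.34 and 77.1). Foxo1 was the only gene of the 17 with a higher DN percentile in the full lists, 95.7 against 95.2. Dntt, Ets1, Gfi1, Il7r, Myb, Rag2, Tcf3 and Tcf12 had peaks in pre-B only, and Ets1 had 5 of them and 19 peaks in DP. The list of other cell types, which covers myeloid, erythroid, NK, dendritic and thymic epithelial genes, had 43 pre-B and 8 DN peaks, beside 21980 and 6732 over all genes, and with equal length 11 pre-B peaks. Among its members Itgam had 5 pre-B and 6 DP peaks, Lyz2 and S100a8 had 1 pre-B peak each, at percentiles 7.63 and 2.49, and Csf1r, Ly6g and S100a9 had none in DN or pre-B. The best pre-B peak stood at percentile 81.2 at Cebpe (82.6 in DN) and 80.0 at Elane (4.08 in DN). At Itgam, Fcgr3, Cebpa and Mpo, which had no DN peak, it stood at 74.8, 69.4, 52.0 and 50.7. Whether other marrow cells took part in the pre-B list was not tested.

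Peaks at transcription starts were counted apart. Within 2 kb of a start, 72 protein-coding genes (0.337%) had a peak in DN only and 3875 (18.1%) in pre-B only in the full lists. Of the 34 B-lineage genes 15 (44.1%) had a pre-B-only peak there, Cd79a, Cd79b, Pax5 and Spib among them, and of the 25 progenitor genes 18 (72.0%). The T-lineage list had 3 of 35 (8.57%), Cd2, Cd5 and Satb1, and the list of other cells 6 of 29 (20.7%). These shares count all genes of a list, also those with no start peak. Neither list had a start peak at 76.3% of all, 44.1% of B-lineage, 12% of progenitor, 74.3% of T-lineage and 75.9% of other-cell genes. Both lists had a start peak at 5.19%, 11.8%, 16%, 11.4% and 3.45% in the same order. Most of the pre-B-only start peaks stood in the lower part of the pre-B list, with median percentiles of 43.0 for the B-lineage and 38.2 for the progenitor genes. With lists of equal length only Irf4 of the B-lineage genes and Id2 and Cdk6 of the progenitor genes still had a pre-B-only start, at percentiles 70.7, 88.5 and 80.8 of the full list. There, 425 genes (1.99%) of all genes had DN-only and 499 (2.34%) pre-B-only peaks at a start, and the T-lineage list had 4 DN-only starts, those of Bcl11b, Cd6, Gata3 and Tox, and 0 in pre-B only. Bach2 of the B-lineage list, Bcl2 of the progenitor list and Klf1 of the list of other cells had a DN-only start there too. DN-only starts in the full lists were those of Bcl11b (73.0) and Tox (46.4), both factors of T-cell development.

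Beyond the lists, the genes with most peaks in one cell type and none in the other included Foxp1, a transcription factor needed in early B cells, with 17 pre-B peaks and 15 in DP, Inpp5d with 12, Pax5 with 11 and Myo1e with 9. Inpp5d encodes the phosphatase SHIP1, a brake on B-cell receptor signalling. In DN the most was 3, at Fam190a, followed by Qpct and Flrt3 with 2 and Nupr1 with 1 at percentile 84.6. In equal-length lists Bcl11b came second for DN with 3 peaks, after Rbfox3 with 4, and before Ebf3, Slco3a1 and Dapk1 with 3. For pre-B these were Celf4 with 5, Map3k1, Myo1e and Pax5 with 4 and Slpi with 3.

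Neighbouring sites were counted in windows of 200 kb, drawn up after the values had been seen. DN-only peaks of the full lists stood in 525 windows, of which 35 held 2 or more and 3 held 3. The window with the highest of these was that of the Bcl11b desert (chr12:108200001-108400000), with 3 DN and 21 DP peaks, where 2 of the DN peaks lay under the same DP peak. Pre-B-only peaks filled 6291 windows, of which 1501 held 5 or more. The fullest, with 21, lay in a stretch of chromosome 8 with no protein-coding gene, and the next, with 20, spanned Hvcn1, a proton channel gene of B cells, and 4 other genes. The DP list had 16 Rad21 peaks in the former window and 25 in the latter. In equal-length lists the Hvcn1 window led with 7 pre-B-only peaks, followed with 6 by a window of 8 genes on chromosome 10. In these shorter lists DN-only peaks stood in 2525 and pre-B-only peaks in 2225 windows, and the fullest DN-only windows held 5, one of them spanning Clrn3, Foxi2 and Ptpre. The window of Bcl11b and Setd3 held 4 DN-only peaks.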

How the data were processed

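Chromatin of RAG-deficient lymphocyte progenitors was profiled by ChIP-seq, without replicates. Before alignment the authors took out duplicates and adapter sequence. Alignment was to mm9 with Bowtie (0.12.9 in the submitters' processing notes), reads mapping to up to 3 places were kept, and peaks were called with MACS 1.4.2 against the input of the same cells. The deposited files give each peak's position and score, where the score was used as a rank within its own list. The exception is the alternative with scores of at least 100, which sets the same limit for both lists although scores grow with depth. Reads kept at several places can give peaks in repeats, and the numbers of reads are unknown.

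Sequence came from NCBIM37, the assembly named mm9, and genes from GENCODE vM1 on it. Ptcra and Gfi1, typed there as non-coding, were counted as protein-coding. Receptor loci were spans of their annotated genes with 100 kb on each side. A percentile is the share of kept peaks scored lower, and ties were ordered by position. Each DN peak was paired with its highest pre-B partner, so 48 pre-B peaks entered with more than 1 DN peak. Intervals are exact Clopper-Pearson at 95%. The named sites were the 10 highest one-sided peaks and the 10 largest differences in percentile each way, with list genes found in one list only or differing most, and up to 5 genes each way with most peaks. Members and lists were chosen with earlier results of these data known. Older symbols were matched through RefSeq (GRCm38.p6), and Btk and Gata1 lie outside the chromosomes used. Some members are not reported here by name, though the counts include them. The methods were tested on simulated peaks. Scripts ran under Python 3.11.15 with samtools 1.23.1 and pysam 0.24.0 for sequence, scipy 1.17.1 and numpy 2.4.6 for statistics, and matplotlib 3.10.9 for figures.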

Additional observations from a re-analysis of the deposited data

How the results depend on the processing

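Alternatives fixed for this comparison were equal-length lists, 50% overlap, scores of at least 100, a locus margin of 500 kb, other gene windows and a stricter motif. Of 40 values 26 were labelled as moved and 14 as unmoved, but some gene counts among the 14 did change. B-lineage genes in pre-B only went from 10 to 15 at starts, and those in both from 22 to 29 with 50 kb. T-lineage genes in both went from 25 to 32 with 50 kb and to 19 with equal-length lists. T-lineage genes in pre-B only went from 4 to 3 at starts. No value was labelled as reversed, which for a share or a count was not possible. An overlap of 50% gave shares of 94.0% and 29.97% and a correlation of 0.49, and the wider margin shares of 94.1% and 30.01%. The share of DN peaks with a pre-B peak was 67.2% with equal-length lists and 91.9% with scores of at least 100, and the share of pre-B peaks with a DN peak 66.8% and 33.8%. The correlation was 0.43 with equal-length lists. With equal-length lists, pre-B CTCF overlapped 99.95% of shared, 88.0% of DN-only and 99.3% of pre-B-only sites, IL7 pro-B CTCF 100%, 94.8% and 99.1%, and DP Rad21 98.4%, 86.6% and 82.9%. T-lineage genes with a peak in DN only were 1 with 50 kb around genes, 2 with 2 kb around starts and 6 with equal-length lists, those in pre-B only 2 with 50 kb and 2 with equal-length lists, and those in both 4 at starts. B-lineage genes in pre-B only were 4 with 50 kb and 4 with equal-length lists, and those in both 4 at starts. With at most 1 mismatch the CTCF consensus stood in 21.8% of shared, 10.3% of DN-only and 12.7% of pre-B-only sites. No paired analysis was possible because each cell type has 1 library. The DN list ends at a score of 86.45, so a site missing from it may be bound below that limit, and the depth of either library is unknown.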

Other observations

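The sex chromosomes, outside the comparison, held 144 DN and 677 pre-B Rad21 peaks, of which 135 DN peaks (93.8%, 88.5 to 97.1%) and 135 pre-B peaks (19.9%, 17.0 to 23.2%) were shared. The antigen receptor loci that were left out held 28 DN and 111 pre-B peaks at Igh, 7 and 69 at Igk, 0 and 9 at Igl, 11 and 9 at TCRb, 39 and 47 at TCRa/d and 6 and 9 at TCRg.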
